A study of Mus musculus with 5 samples.

Results

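The fibroblast growth factor (FGF) system was described here as 31 genes that were chosen by name: 20 Fgf ligand genes, 5 receptor genes and 6 genes for feedback inhibitors of the Sprouty and Spred families. All 31 were found among the 22350 protein-coding genes of chromosomes 1 to 19 and X in the mouse mm9 annotation. All 31 lie on autosomes, and no Fgf gene of the X chromosome is among them. The shares of all genes given below include the genes of X. H3K27me3, the trimethylated form of histone H3 lysine 27, was profiled by ChIP-Seq in isogenic mouse embryonic fibroblasts (MEFs). One line expressed H3.3 K27R, in which arginine replaces the lysine, and was used as the reference. Another expressed H3.3 K27M, the oncohistone of diffuse midline glioma, and another expressed human EZHIP, a protein of PFA ependymoma. All lines shared a parental MEF line with floxed Eed, the gene of a subunit of Polycomb Repressive Complex 2 (PRC2), and Cre is named in the labels for the EEDnull line alone. The transgenes were delivered by lentivirus from a vector with the EF1a promoter, and transduced cells were selected with puromycin. Whether a transduced line was cloned is not given in the sources used here. The untransduced control and the EEDnull line, which is a single clone, were not analysed here.

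FGF ligands bind receptor tyrosine kinases together with heparan sulfate or Klotho proteins and activate the RAS and ERK cascade. Sprouty and Spred proteins dampen this cascade. Most ligands are secreted signals of embryonic tissues that are made in narrow domains and periods, and a few act as hormones or inside the cell. Fgf11, Fgf12 and Fgf14 form the intracellular subfamily and are counted with the ligands here by family name. PRC2 places H3K27me3 over developmental genes that are silent in a cell type, often around CpG islands, and broad domains spread from such sites. H3.3 K27M and EZHIP both inhibit PRC2, and the regions that still carry the mark in cells expressing either are called residual below.

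Each list held the positions of broad enriched regions of 1 library, without heights or scores. There were no replicates, so that all counts describe these 3 libraries and no difference was tested. The K27R list held 12845 intervals with a median width of 16.0 kb, the K27M list 3736 of 6.8 kb and the EZHIP list 4992 of 4.4 kb. The depth behind the lists is unknown. A gene without an interval may still carry H3K27me3 below the calling threshold, and a mark in some of the cells cannot be told apart from a weaker mark in all of them. Of 12 fibroblast marker genes, 1 had its start site in a K27R interval (Pdgfra, also in the K27M and EZHIP lists), against 14 of 20 epithelial, neural, blood and endothelial markers. Of all protein-coding genes, 30.1% had the start site in a K27R interval, 9.02% in K27M and 7.73% in EZHIP. By the start of the transcript with the longest coding sequence, Pdgfra was in the K27R list alone. The last 7.73 Mb of chromosome 7 held no K27R interval, and the last 8.0 Mb and 8.01 Mb held no K27M or EZHIP interval. None of the 167 gene starts in the K27R stretch was therefore covered, and the next longest interval-free end of a chromosome was 1.66 Mb in that list. Longer interval-free stretches lay between intervals elsewhere, 3 in K27R (longest 8.48 Mb), 31 in K27M (18.1 Mb) and 37 in EZHIP (28.5 Mb). The ligand genes Fgf3, Fgf4 and Fgf15 lie at the end of chromosome 7, and their state cannot be told apart from a stretch that yielded no calls.

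The start site was taken as the 5′ end of the gene record. Of the 20 ligands, 9 (45.0%) had the start site in a K27R interval, where 30.1% of all protein-coding genes did. In the K27M list 5 ligands (25.0%) had the start site in an interval, where 9.02% of all genes did, and in the EZHIP list 5 (25.0%), where 7.73% did. Of the 5 receptors, 2 had the start site in a K27R interval and 0 in a K27M or EZHIP interval. Counted by any annotated transcript start, 1 receptor, Fgfr3, was in both residual lists. Of the 6 inhibitors, 0 had the start site in an interval of any list. At the shares of all genes, fewer than 1 receptor or inhibitor start would lie in each residual list, so that these zeros show no contrast between the roles. With an interval allowed within 5000 bp of the start, 12 ligands counted in K27R, 7 in K27M and 7 in EZHIP, beside 38.2%, 11.4% and 11.2% of all genes. Gene bodies were touched in 11 ligands by K27R, in 9 by K27M and in 8 by EZHIP intervals, beside 36.1%, 11.5% and 10.6% of all genes. Of all genes with the body touched in K27R, 31.7% were touched in K27M and 29.3% in EZHIP.

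**Figure D1:**
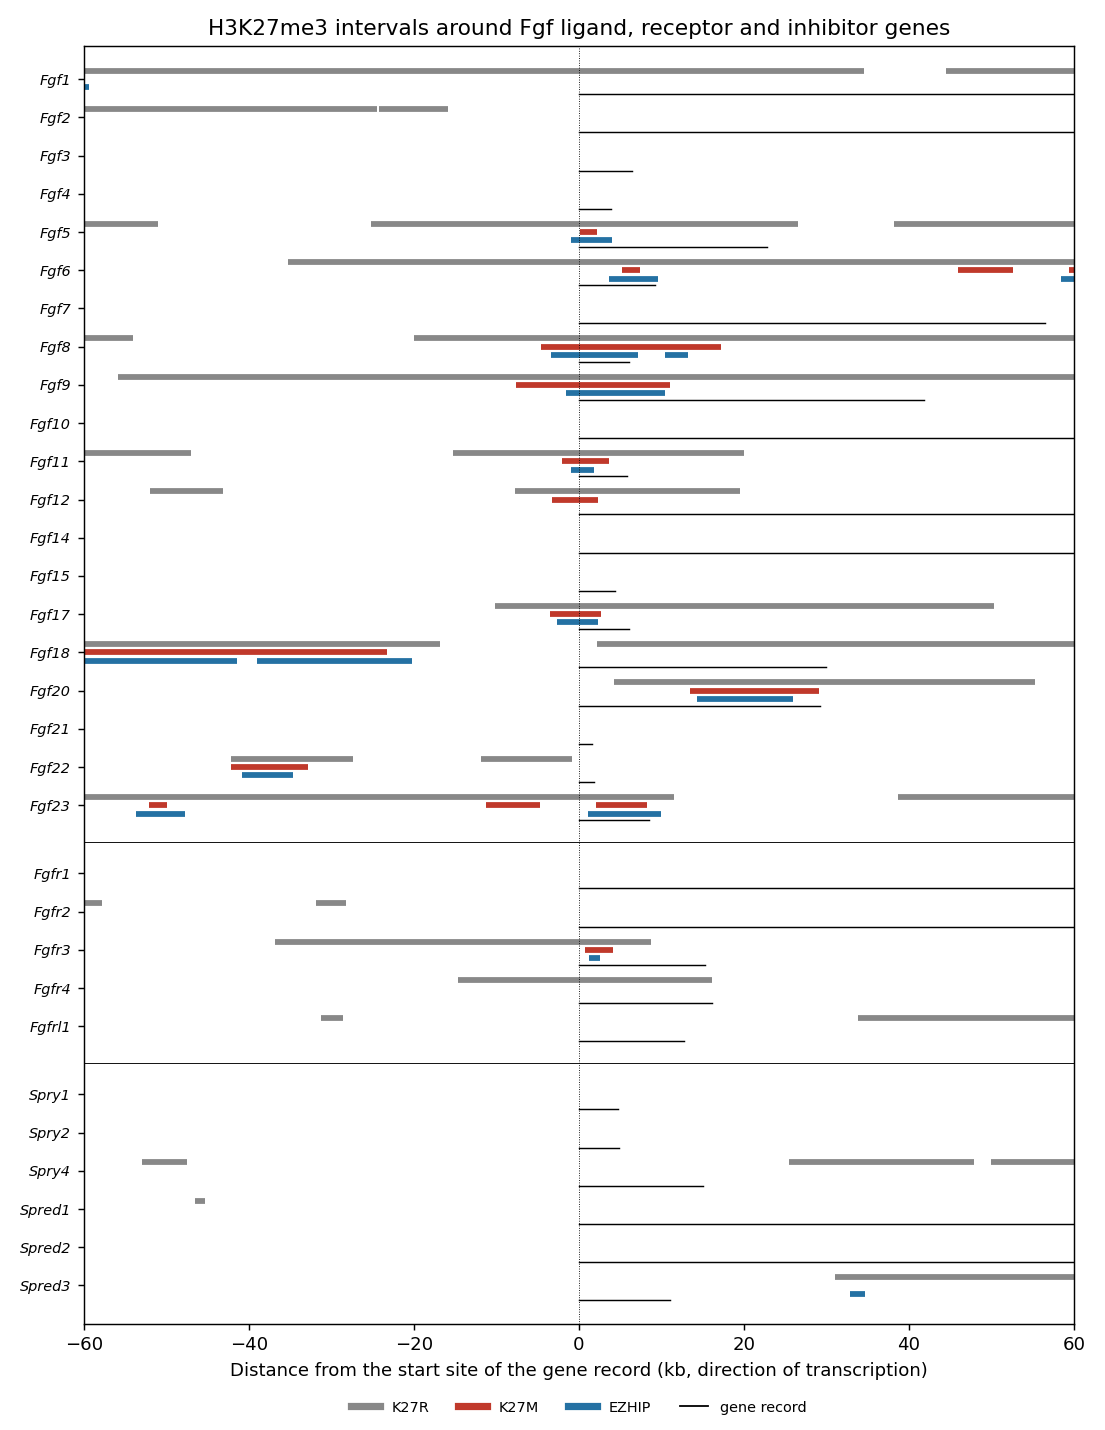
H3K27me3 intervals around the start site of each of the 31 genes, with distance from the start in kb on the horizontal axis, read in the direction of transcription, and the 3 lists as coloured bars within each gene's row. Broad K27R bars lay over 11 start sites, and the K27M and EZHIP bars inside them were shorter and lay mostly near the start, while the rows of the 6 inhibitors held no interval over the start.

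The ligands Fgf8, Fgf9, Fgf11 and Fgf17 had the start site in an interval of every list. Fgf5 had it in K27R and EZHIP intervals, and Fgf12 in K27R and K27M intervals. The 200 bases just upstream of the starts of Fgf9, Fgf11, Fgf17, Fgf5 and Fgf12 are shown, since this is the sequence next to the sites where the mark was still called, read in the direction of transcription with every CG in capitals. They were read from mm9 at chr14:58689184-58689383 (plus strand) for Fgf9, chr11:69615360-69615559 (minus) for Fgf11, chr14:71042076-71042275 (minus) for Fgf17, chr5:98683003-98683202 (plus) for Fgf5 and chr16:28445314-28445513 (minus) for Fgf12.
Fgf9: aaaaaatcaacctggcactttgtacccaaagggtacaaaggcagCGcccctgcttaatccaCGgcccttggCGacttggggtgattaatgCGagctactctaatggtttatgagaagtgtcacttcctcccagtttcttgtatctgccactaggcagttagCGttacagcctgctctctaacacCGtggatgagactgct
Fgf11: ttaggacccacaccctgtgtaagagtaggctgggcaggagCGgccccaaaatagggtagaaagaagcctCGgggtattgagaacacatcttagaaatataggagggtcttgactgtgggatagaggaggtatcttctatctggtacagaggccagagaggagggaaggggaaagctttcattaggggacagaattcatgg
Fgf17: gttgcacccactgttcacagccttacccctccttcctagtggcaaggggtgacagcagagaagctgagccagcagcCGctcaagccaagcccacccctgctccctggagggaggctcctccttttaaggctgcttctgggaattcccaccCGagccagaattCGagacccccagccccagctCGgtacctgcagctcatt
Fgf5: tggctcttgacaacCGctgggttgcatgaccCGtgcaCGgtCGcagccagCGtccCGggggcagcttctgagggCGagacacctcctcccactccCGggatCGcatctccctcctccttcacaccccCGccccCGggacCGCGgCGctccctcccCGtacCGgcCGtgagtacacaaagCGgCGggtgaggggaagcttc
Fgf12: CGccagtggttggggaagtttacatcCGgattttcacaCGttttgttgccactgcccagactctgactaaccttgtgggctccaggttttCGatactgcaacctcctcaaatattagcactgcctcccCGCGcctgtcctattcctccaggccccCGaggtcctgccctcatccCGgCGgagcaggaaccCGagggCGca
None of these windows overlapped an annotated exon. The window of Fgf5 held 19 CG, a number reached by 16.8% of all promoters. Fgf12 held 11 (39.2%), Fgf9 6 (56.0%), Fgf17 4 (65.3%) and Fgf11 2 (80.1%). All 6 members with the start in a residual interval had a CpG island within 500 bp of the start.

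Fgf8, which patterns the limb bud, the midbrain and the heart field, was the ligand most fully covered in all 3 libraries. Its gene (chr19:45811288-45817405, minus strand) lay wholly inside intervals of each list, with 100% of the gene body covered each time. The K27R interval was 93.4 kb wide, the K27M interval 21.8 kb and the EZHIP interval 10.6 kb. Relative to the start site, with negative values upstream, the K27M interval ran from -4.6 kb to 17.2 kb and the EZHIP interval from -3.4 kb to 7.2 kb, over all 5 exons in either list. A second EZHIP interval of 2.8 kb lay 3.2 kb from the first and inside the K27M interval. The K27M list had 1 unbroken interval over the stretch that held both.

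Fgf9, a ligand of lung, gonad and skeletal development, lay in the widest K27R interval over any member start. This interval (chr14:58633601-58853400) was 219.8 kb wide and covered the whole gene. The K27M interval was 18.6 kb wide, from -7.6 kb to 11 kb, and the EZHIP interval 12 kb wide, from -1.6 kb to 10.4 kb. They covered 26.4% and 24.9% of the gene body, at exon 1 of 3. Both reached a similar distance into the gene, and the K27M interval extended farther upstream.

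Fgf17, a ligand of the Fgf8 subfamily, and Fgf11, an intracellular family member that acts on sodium channels, had narrower intervals at the start. At Fgf17 the K27R interval was 60.4 kb wide, the K27M interval 6.2 kb and the EZHIP interval 5.0 kb, and both residual intervals covered exons 1 and 2 of 5. They covered 44.1% of the Fgf17 gene body in K27M and 37.5% in EZHIP. At Fgf11 the widths in the same order were 35.2 kb, 5.6 kb and 2.8 kb. The K27M interval there covered exons 1 to 4 of 5 and reached into the neighbouring gene Tmem102, and the EZHIP interval covered exon 1. At Fgf8, Fgf9, Fgf11 and Fgf17 the EZHIP interval over the start lay wholly within the K27M interval.

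Fgf5, which ends the growth phase of the hair cycle, had its start site in an EZHIP interval and next to a K27M interval. The whole gene (chr5:98683203-98706049, plus strand) lay in a K27R interval of 51.8 kb. The EZHIP interval was 5.0 kb wide, from -1.0 kb to 4.0 kb, and covered 17.5% of the gene body. The K27M interval was 2.0 kb wide, lay within the EZHIP interval and began 0.2 kb downstream of the start, which is 1 bin of 200 bp. The start-site state of Fgf5 in K27M thus rests on the placement of 1 bin.

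Fgf12, another intracellular family member of neurons, had a K27M interval at its start and no EZHIP interval nearby. Its K27R interval was 27.2 kb wide and covered 6.84% of this long gene (chr16:28160206-28445313, minus strand). The K27M interval was 5.6 kb wide, from -3.3 kb to 2.3 kb, over exon 1 of 5. The nearest EZHIP interval was 588.9 kb from the start. Of all member starts in a K27M interval, Fgf12 was the one without an EZHIP interval over the gene.

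The ligand genes Fgf1, Fgf6 and Fgf23 had the start site in a K27R interval alone, and none of them had a CpG island within 500 bp of the start. Fgf6, a ligand of skeletal muscle, and Fgf23, the bone hormone that lowers blood phosphate, are neighbours and shared 1 K27R interval of 104.0 kb (chr6:126930401-127034400). Their upstream windows are shown for contrast with those of the starts in residual intervals, from chr6:126965360-126965559 and chr6:127022720-127022919, both plus strand, with CG in capitals.
Fgf6: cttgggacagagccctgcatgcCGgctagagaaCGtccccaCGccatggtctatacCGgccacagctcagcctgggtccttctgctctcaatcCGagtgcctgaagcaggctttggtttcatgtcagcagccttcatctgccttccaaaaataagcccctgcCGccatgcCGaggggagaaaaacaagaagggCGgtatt
Fgf23: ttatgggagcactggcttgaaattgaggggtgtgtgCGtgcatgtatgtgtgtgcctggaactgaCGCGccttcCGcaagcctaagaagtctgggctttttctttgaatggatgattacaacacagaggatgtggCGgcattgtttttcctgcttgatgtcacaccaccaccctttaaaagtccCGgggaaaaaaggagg
The Fgf6 window held 8 CG (49.0% of promoters had at least as many) and the Fgf23 window 6 (56.0%). These counts lay inside the range of the windows of Fgf9, Fgf11, Fgf17, Fgf5 and Fgf12.

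Within the shared Fgf6 and Fgf23 region, both EZHIP intervals and 2 of the 3 K27M intervals lay over the gene bodies downstream of the starts. The other K27M interval lay between the genes, from -11.3 kb to -4.7 kb of the Fgf23 start. At Fgf6 the K27M interval was 2.2 kb wide and began 5.2 kb downstream of the start, in intron 2. The EZHIP interval there was 6.0 kb wide, began 3.6 kb downstream and covered exon 3 of 3. These covered 24.0% of the Fgf6 gene body in K27M and 60.3% in EZHIP. At Fgf23 the K27M interval was 6.2 kb wide and the EZHIP interval 8.8 kb, beginning 2.1 kb and 1.1 kb downstream of the start and covering exons 2 and 3 of 3. They covered 72.9% of the Fgf23 gene body in K27M and 87.3% in EZHIP. At Fgf5, Fgf6 and Fgf23 the K27M interval lay wholly within the EZHIP interval, the opposite arrangement to that at Fgf8, Fgf9, Fgf11 and Fgf17. Over the whole 104.0 kb the residual lists covered a like share, 14.4% in K27M and 14.2% in EZHIP.

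Fgf1, a ligand that binds all FGF receptors, had K27R intervals over 79.2% of its gene body and 0 K27M or EZHIP intervals. The K27R interval over the start was 116.8 kb wide. The nearest K27M interval was 61.9 kb and the nearest EZHIP interval 59.3 kb from the start.

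Fgf18 and Fgf20 had K27R intervals over most of the gene but not over the start of the gene record. Fgf20, a ligand of the inner ear and kidney, was covered to 85.3% (K27R), 53.5% (K27M) and 39.8% (EZHIP). Its record starts 4.3 kb outside the K27R interval, while the start of its transcript with the longest coding sequence lay in an interval of all 3 lists. Counted by such transcripts, 10 ligands had the start in K27R, 6 in K27M and 6 in EZHIP, beside 29.9%, 8.88% and 7.61% of all genes, and Fgf20 joined the ligands with the start in every list. Fgf18, a ligand of bone and cartilage, was covered to 92.7% by a K27R interval of 207.6 kb that ended 2.2 kb short of its start. No residual interval touched Fgf18, and the nearest were 23.2 kb away in K27M and 20.2 kb in EZHIP. The Fgf18 start held a CpG island of 1422 bp.

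The other 9 ligands were touched by 0 intervals of any list. They include the widely made Fgf2, the mesenchymal ligands Fgf7 and Fgf10, the liver hormone Fgf21, the neuronal Fgf14 and Fgf22, and the 3 ligands at the end of chromosome 7. For Fgf2 the nearest K27R interval was 15.8 kb from the start, for Fgf7 217.6 kb, for Fgf10 268.2 kb, for Fgf21 82.9 kb and for Fgf14 1409.9 kb. Fgf22 was closest, with a K27R interval 0.8 kb from its start and residual intervals at 32.8 kb in K27M and 34.6 kb in EZHIP. Whether these genes are transcribed in the cells was not measured by these lists.

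**Figure D2:**
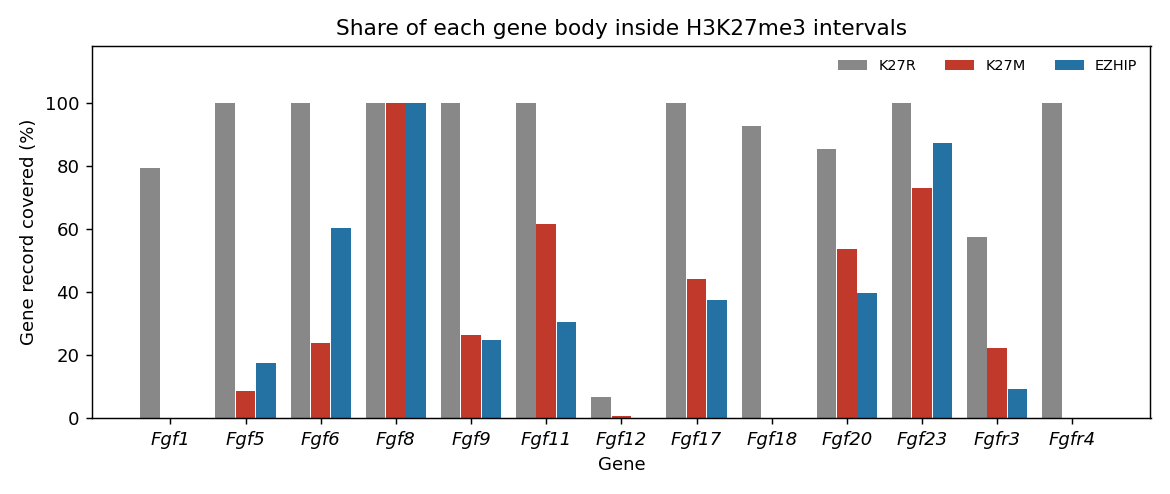
Percent of each gene body covered by intervals of the K27R, K27M and EZHIP lists, as 1 bar for each of the 13 genes with an interval over the gene, leaving out the long Fgfr2 record, in the 1 library of each list. K27R bars stand at or near 100% for most genes, Fgf8 is at 100% in all lists, EZHIP bars stand above K27M bars at Fgf5, Fgf6 and Fgf23, and Fgf1, Fgf18 and Fgfr4 have K27R bars alone.

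The receptors had K27R intervals at Fgfr3 and Fgfr4, and their states in the residual lists differed. Fgfr4, the receptor of liver that receives the gut hormone Fgf15, lay wholly in a K27R interval of 30.8 kb (chr13:55239401-55270200). It was covered to 0% in K27M and in EZHIP, whose nearest intervals were 188.8 kb and 143.4 kb from the start. Fgfr3, the receptor that restrains growth of cartilage, was covered to 57.5% (K27R), 22.2% (K27M) and 9.12% (EZHIP). Its K27R interval was 45.6 kb wide, the K27M interval 3.4 kb and the EZHIP interval 1.4 kb.

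At Fgfr3 the residual intervals began 0.8 kb and 1.2 kb downstream of the start, in intron 2 of the transcript with the longest coding sequence. Other annotated Fgfr3 transcripts start inside them, so that by any transcript start Fgfr3 counted in all 3 lists. The EZHIP interval there was the narrowest over any member. The sequence in its middle is shown beside the windows upstream of the Fgfr3 and Fgfr4 starts, to set the place of the residual mark against the starts where it was not called. The windows are chr5:34064173-34064372 for Fgfr3, chr13:55253801-55254000 for Fgfr4 and chr5:34066201-34066400 for the Fgfr3 intron, all plus strand with CG in capitals, and the last was chosen after its values were seen.
Fgfr3: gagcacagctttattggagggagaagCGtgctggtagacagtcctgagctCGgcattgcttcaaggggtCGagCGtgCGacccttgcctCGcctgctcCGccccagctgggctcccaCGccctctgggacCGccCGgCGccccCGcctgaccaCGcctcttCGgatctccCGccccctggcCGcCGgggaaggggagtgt
Fgfr4: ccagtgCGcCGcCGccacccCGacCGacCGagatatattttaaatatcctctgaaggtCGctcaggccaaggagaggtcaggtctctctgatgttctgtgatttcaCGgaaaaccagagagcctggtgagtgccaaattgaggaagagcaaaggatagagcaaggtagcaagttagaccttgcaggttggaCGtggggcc
Fgfr3 intron: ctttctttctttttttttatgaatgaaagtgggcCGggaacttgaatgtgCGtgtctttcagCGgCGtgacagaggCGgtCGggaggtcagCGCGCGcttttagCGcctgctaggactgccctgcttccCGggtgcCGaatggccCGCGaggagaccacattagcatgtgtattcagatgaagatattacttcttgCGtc
The Fgfr3 window upstream of the start held 17 CG (21.6% of promoters had at least as many), the intron window 15 (27.3%) and the Fgfr4 window 9 (45.7%). A CpG island covered 0.958 kb of the 1.4 kb EZHIP interval. Fgfr4 also had an island at its start, of 728 bp, and was in neither residual list.

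Fgfr1, the main receptor of mesenchyme, and Fgfrl1, a receptor without a kinase domain, were touched by 0 intervals. The nearest K27R interval was 249.9 kb from the Fgfr1 start and 28.6 kb from the Fgfrl1 start. Fgfr2, the receptor for Fgf7 and Fgf10 in epithelia, has a gene record of 3010 kb because of a single transcript, and 19.9% of that record was covered in K27R. The transcript of Fgfr2 with the longest coding sequence (chr7:137307223-137409705, minus strand) was touched by no interval of any list. By such transcripts, 2 receptors were touched in K27R, 1 in K27M and 1 in EZHIP.

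No interval of any list touched the gene body of a feedback inhibitor, 0 of 6, beside 36.1% of all genes in K27R, 11.5% in K27M and 10.6% in EZHIP. For the residual lists 0 of 6 is near the share of all genes. Spry1, Spry2 and Spry4 restrain signalling from receptor tyrosine kinases to ERK, and Spred1, Spred2 and Spred3 block RAS activation. Their nearest K27R intervals were 25.5 kb (Spry4) to 594.6 kb (Spry2) from the start. For K27M the distances ran from 96.5 kb (Spred3) to 2058.2 kb (Spred2), and for EZHIP from 32.9 kb (Spred3) to 1422.0 kb (Spry2). Of the 6 inhibitors, 5 had a CpG island at the start. The window upstream of Spry2 (chr14:106296037-106296236, minus strand, CG in capitals) is shown as an example of a start outside all lists.
Spry2: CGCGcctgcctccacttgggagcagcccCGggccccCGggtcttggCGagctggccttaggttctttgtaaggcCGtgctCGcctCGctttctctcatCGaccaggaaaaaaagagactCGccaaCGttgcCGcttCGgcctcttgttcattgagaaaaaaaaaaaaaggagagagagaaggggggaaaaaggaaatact
It held 13 CG, a number reached by 33.1% of promoters, and lay between the Fgf5 and Fgf12 windows in this count.

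**Figure D3:**
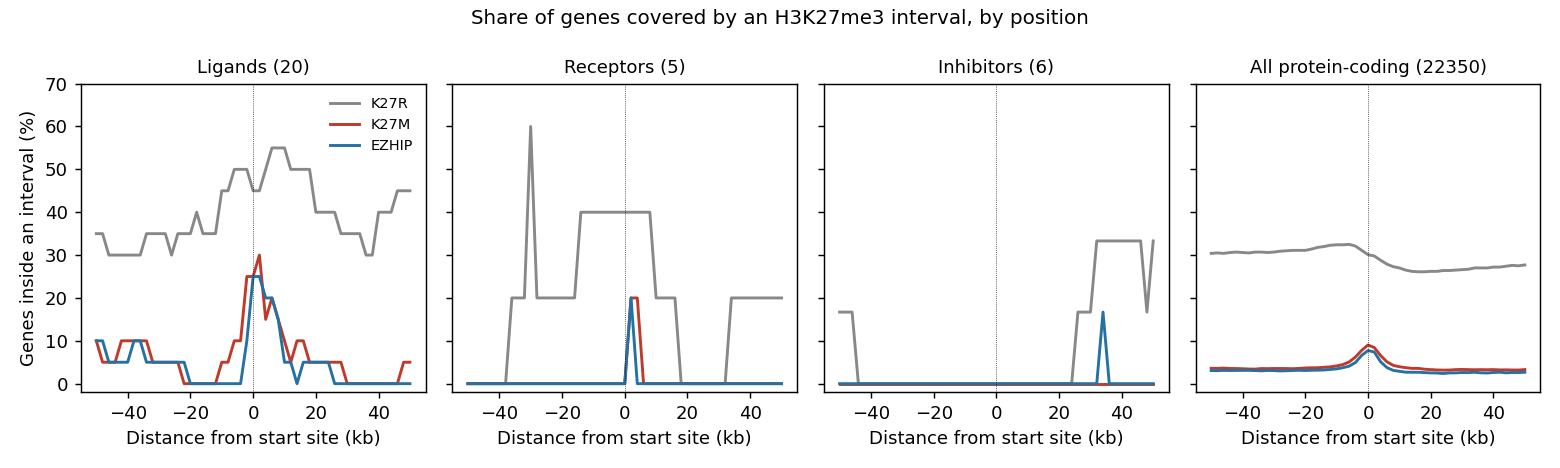
Share of genes, in percent, with an interval at each distance from the start site (kb, negative upstream), for ligands, receptors, inhibitors and all protein-coding genes, in each of the 3 lists. Ligands stand at 45.0% in K27R and 25.0% in K27M and EZHIP at the start, and by -10 kb they are at 5.0% in K27M and 0% in EZHIP while still at 45.0% in K27R.

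Among the ligands, cover by residual intervals was 25.0% in EZHIP both at the start and 2 kb downstream, and 25.0% and 30.0% in K27M, a step of 1 gene, whereas K27R intervals extended far to both sides. At 10 kb downstream of the start, 55.0% of ligands were covered in K27R, 10.0% in K27M and 5.0% in EZHIP. Over all genes the covered share in K27M went from 9.02% at the start to 4.14% at -10 kb and 3.95% at 10 kb, and in EZHIP from 7.73% to 3.45% and 2.88%. A peak of residual cover near the start was thus shared with genes at large.

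Of the 11 members with the start in a K27R interval, 5 (45.5%) had it in a K27M interval, 5 (45.5%) in an EZHIP interval and 4 in both. Over the 6735 genes with the start in a K27R interval, the shares were 29.9% in K27M, 25.6% in EZHIP and 21.9% in both. The start was in neither residual list for 5 members, in K27M and not EZHIP for 1 (Fgf12) and in EZHIP and not K27M for 1 (Fgf5), beside 66.5%, 7.94% and 3.68% of those genes. An island within 500 bp of the start was found at 8 of these 11 members, where 44.5% of such genes had one, and at 22 of all 31 members, where 53.6% of all genes did. Among the 8 such members with an island, 5 (62.5%) were in K27M and 5 (62.5%) in EZHIP, beside 52.0% and 44.0% of all such genes with an island. Among the 3 such members without an island, 0 were in either list, beside 12.1% and 10.9% of all such genes without one. With so few members, these counts lie within 2 genes of the shares of all genes with the same island state. Of the 20 members with the start in no list, 14 also had an island.

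The number of CG within 1001 bp around the start was 33 to 102 (median 43.5) for the 6 members with the start in a residual list. It was 11 to 73 (median 33.0) for the 5 in K27R only and 14 to 146 (median 64.0) for the 20 in no list. The ranges overlapped. Over all genes the median in this window was 60 with the start in all 3 lists and 18 in K27R only. The 6 members above include Fgf5 and Fgf12, each with the start in 1 residual list. Those with the start in every list had 102 (Fgf8), 34 (Fgf9), 37 (Fgf11) and 33 (Fgf17) CG.

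**Figure D4:**
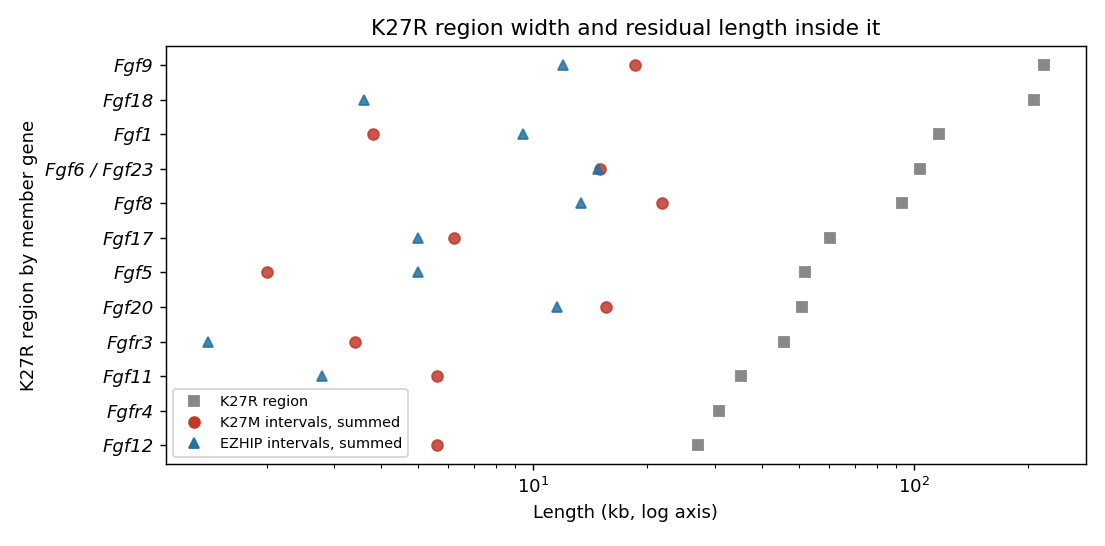
Width in kb (log scale) of each K27R region that touched a member and the length inside it covered by K27M and EZHIP intervals, with 1 row for the widest region of each gene. K27R regions ran from 27.2 kb at Fgf12 to 219.8 kb at Fgf9, the residual lengths were 21.8 kb or less, and Fgfr4 had none.

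The residual intervals covered a small part of each K27R region at the members. There were 14 K27R regions that touched a coding transcript of a member, of which 10 held a K27M interval, 10 an EZHIP interval and 9 both. The median share still covered, among the regions with an interval of that list, was 12.4% in K27M and 8.16% in EZHIP. The share was highest at Fgf20, with 30.6% in K27M and 22.7% in EZHIP, and at Fgf8 it was 23.3% and 14.3%. Among the 9 regions with intervals of both lists, K27M covered more in 7 and EZHIP in 2, those of Fgf1 and Fgf5. Over all K27R regions with a protein-coding start and both lists, K27M covered more in 68.0% and EZHIP in 29.8%, so that the members were near the general share. Among the 3623 K27R regions over any protein-coding start, 49.2% held a K27M interval and 48.9% an EZHIP interval, with medians of 15.2% and 11.7%.

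Over the member starts, the 10 K27R intervals had a median width of 56.1 kb (27.2 to 219.8 kb). The median was 6.2 kb in K27M (5 intervals, 5.6 to 21.8 kb) and 5.0 kb in EZHIP (5 intervals, 2.8 to 12 kb). Over the starts of all genes the medians were 53.6 kb, 10.0 kb and 8.0 kb. With so few intervals the member medians moved: merging intervals up to 10000 bp apart gave 12.4 kb in K27M, and the starts of transcripts with the longest coding sequence gave 10.9 kb in K27M and 7.8 kb in EZHIP. No order between members and all genes can therefore be read for the residual lists. In mean body cover, the ligands stood at 48.2% (K27R), 19.6% (K27M) and 19.9% (EZHIP), and all genes at 26.6%, 4.85% and 3.91%. The ligand medians were 43.0% in K27R and 0% in K27M and EZHIP, and those of all genes were 0% in each list. The residual means of the ligands thus rest on the 9 of 20 touched in K27M and the 8 touched in EZHIP. The ligand means in the residual lists lay close together although single ligands such as Fgf6 and Fgf11 were covered to different extents.

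The other genes of the pathway were taken from a list by role. The 52 genes were those for co-receptors and ligand-binding proteins, heparan sulfate, adaptors and kinases, and targets and other feedback. Of these, 10 (19.2%) had the start in a K27R interval, 5 (9.62%) in K27M and 2 (3.85%) in EZHIP. The shares of all genes were 30.1%, 9.02% and 7.73%. Hs6st2, Gpc3 and Gpc4 share 1 K27R interval of 4110.6 kb on the X chromosome, and Hs6st2 and Gpc4 are named here after their values were seen. Of the 17 adaptor and kinase genes, 0 had the start in an interval of any list. Within 5000 bp of the start, 2 of them had a K27R interval, 1 a K27M interval and 1 an EZHIP interval. For all genes these shares were 38.2%, 11.4% and 11.2%. The gene body was touched in 1 of the 17 by K27R intervals and in 0 by residual intervals. The 2 genes in all lists were Kl, the co-receptor for Fgf23, and Hs6st3, which adds sulfate to heparan sulfate. The Kl start lay in intervals of 83.8 kb (K27R), 5.2 kb (K27M) and 2.4 kb (EZHIP), and the Hs6st3 start in intervals of 112.6 kb, 11 kb and 6.6 kb. Gpc3 and Sdc3, which encode heparan sulfate proteoglycans, and Etv4, a transcription factor induced by FGF, had the start in K27R and K27M intervals. For Etv4 an EZHIP interval lay 0.3 kb from the start, and for Sdc3 the nearest was 149.7 kb away. The hormone Fgf23 and its co-receptor Kl thus both carried intervals in every list over the gene. The residual intervals lay at the start for Kl and downstream of it for Fgf23. This pair was picked after the values were seen. Klb, also listed among the co-receptors, had its start in a K27R interval of 22.2 kb and was covered to 0% in K27M and EZHIP.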

How the data were processed

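H3K27me3 ChIP-Seq peak lists of 3 MEF lines (K27R, K27M and EZHIP, 1 library each) were analysed out of 5 libraries in the series. Groups were taken from the sample titles. Per the labels, cells were crosslinked and chromatin was digested with MNase. By the submitters' processing notes and the methods, the authors aligned reads with Bowtie 1.0.0 to mm9 and a reference genome of another species and called broad peaks with MOSAiCS-HMM, which joins nearby enriched bins. The joining can merge close peaks into 1 interval. The paper gives a maximum gap of 10000 bp, yet closer intervals stayed apart in the lists, such as the EZHIP intervals 3.2 kb apart at Fgf8. Widths and numbers of intervals thus rest on joining that the stated gap does not fully describe. The deposited lists give positions only, with no height, score, count or p-value, so that depth is unknown and no count test could be run. Every interval was made of whole 200 bp bins.

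Genes and start sites came from the GENCODE annotation of NCBIM37 (mm9), matched by symbol. A start was in an interval when they shared at least 1 bp. CpG islands were found in mm9 by scoring 17 for each CG and -1 for other bases, and segments over 200 bp were kept whose G+C content reached 50% and whose CpG ratio, observed over expected, exceeded 0.6, which gave 27400 islands with repeats not masked. For Fgfr1, with 2 gene records, the longer was used. The interval tools and the island finder were checked on simulated data. The members and gene lists were chosen with earlier results of these data known. Named are all members, pathway genes with a start in a residual interval, and genes that share a residual interval with a member. Hs6st2, Gpc4 and Klb are named besides, after their values were seen. Of 53 pathway symbols 52 were found. Upstream sequences are printed for 10 members chosen by start-site state, and that of 1 more member which the rule takes in is not reported here, so that the printed windows do not give the full range of CG counts. Python 3.11.15, numpy 2.4.6 and pandas 2.3.3 were used. Alternatives covered other start sites, distances, minimum widths and merging.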

Additional observations from a re-analysis of the deposited data

How the results depend on the processing

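The 159 recomputed values belong to 23 counts, percents and widths, none of which has a direction that could reverse. Of these values, 144 stayed within 1.5 times the main count or, for medians, within the interval of the median over members. That interval is wide with 5 residual intervals a list: the median K27M width of 6.2 kb became 12.4 kb with merging, 11.6 kb as a mean and 10.9 kb with coding-transcript starts. The EZHIP width of 5.0 kb became 7.8 kb with coding-transcript starts and with intervals of at least 5000 bp. Some of the 159 values could not move. The narrowest interval over a member start was 2.8 kb, so a minimum width of 2000 bp could change no start count of members. The inhibitor starts lay 25.5 kb or more from any interval, beyond every distance used. The counts that moved rested on a few genes. With an interval allowed within 5000 bp of the start, 8 members with a K27R start counted in K27M and 8 in EZHIP, receptors counted 1 in K27M and 1 in EZHIP, and the other pathway genes 16 in K27R and 4 in EZHIP. Within 1000 bp, receptors counted 1 in K27M and the other pathway genes 4 in EZHIP. With any annotated transcript start, receptors counted 1 in K27M and 1 in EZHIP, which is Fgfr3. With intervals of at least 5000 bp, the other pathway genes counted 1 in EZHIP. With 50% or more of the gene body covered, 4 members counted in K27M and 3 in EZHIP, in place of 11 and 10 touched. The mean body cover over members was 13.4% in K27M and 13.2% in EZHIP, where the median was 0 in both. In K27R the median was also 0 and the mean 36.8%, which was counted as within the interval of the median. Leaving out a replicate could not be done with 1 library per group. No paired analysis was possible because each group has 1 library and the result comes from no test.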

Other observations

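The long Fgfr2 record held residual intervals far from the Fgfr2 coding transcript, most of them over other genes. The record extends to 3010 kb through 1 of its 29 transcripts, which has 546 coding bases, while the next transcript ends at position 137410322 of chromosome 7. Inside it, a K27M interval of 24.0 kb and an EZHIP interval of 22.4 kb lay over Hmx2 and Hmx3, homeobox genes of the inner ear and nervous system. A K27M interval of 14.4 kb and an EZHIP interval of 11.4 kb lay over Nkx1-2, another homeobox gene. A further EZHIP interval of 2.8 kb (chr7:139724001-139726800) lay over no other gene and no CpG island. Counts of touched gene bodies that use the record include Fgfr2 through these intervals, and with coding transcripts the members touched were 13 in K27R, 10 in K27M and 9 in EZHIP in place of 14, 11 and 10.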
